A study of Solanum lycopersicum with 12 samples.

Results

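NAC1 (also listed as SlNAC1 and NC1) is a tomato gene for a NAC-domain transcription factor, and 9 clones on a 2-colour array of root transcripts carry its name. They were taken as all spots with the gene symbol NAC1 in the platform annotation, which are 27 of 10368 spots, or 9 of 3456 clones. Each clone is a set of 3 adjacent spots and has a sequence accession of its own, so the clones are separate pieces of cDNA assigned to 1 gene and not replicates of a condition. All 9 were measured on all 12 arrays, as were 3018 clones in total. A clone is called here by the number of its first spot, for example clone 3064 for spots 3064 to 3066.

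The arrays compared root RNA of salt-treated tomato seedlings with root RNA of control seedlings in LA2711, described as tolerant of salt, and in ZS-5, described as sensitive. Treatment lasted 30 min, 2 hr or 6 hr, which gives 6 conditions with 2 arrays each. Treated and control RNA of a condition were hybridised together, with the dyes swapped between the 2 arrays. The series title names suppression subtractive hybridisation, a method that enriches transcripts differing between samples. Salt dose and seedling age are not stated. Nothing says whether a control plant served more than 1 time or whether RNA was pooled from several plants. Root identity cannot be checked, because a ratio holds no transcript level.

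NAC proteins are a plant-specific family of transcription factors, named after NAM, ATAF and CUC. A conserved domain at the N-terminal end binds DNA, and a variable C-terminal part usually activates transcription. Members of the family are known for roles in meristem and organ formation, senescence, fruit ripening and the responses to drought, salt and pathogens. Tomato NAC1 was first described for its interaction with the replication enhancer protein of a leaf curl virus.

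Every value below is a log2 ratio of the treated and control RNAs of a condition, or a difference between such ratios. All 12 arrays run the same way, but the sources used here do not settle which RNA is the numerator. A positive and a negative value thus lie on opposite sides, without a statement on which of them means more transcript after salt. A value of 1 means a 2-fold difference between the RNAs. The median of the 3018 clones was subtracted on each array. That step adds -0.22, 0.35 and 0.98 to the LA2711 values of 30 min, 2 hr and 6 hr, and 0.02, -0.01 and 0.85 to those of ZS-5, so uncentred values are given where they matter. A pair of dye-swap arrays was averaged to 1 value, and SDs over 2 arrays measure technical error only. In tests at a time, p-values measure the spread between the 2 genotypes within a time, pooled over the 3 times. In tests of time or genotype differences they measure the spread left after both. The genotypes thus stand in for replicates, and either spread may be partly technical. With 1 value per condition, no repeat of a condition enters the p-values. A change in the number of cells with the transcript and a change of transcript per cell cannot be told apart in whole roots.

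The main observation is that 7 of the 9 NAC1 clones lay on the positive side at 30 min and far on the negative side at 2 hr and 6 hr, in both genotypes. At the first and last time 8 of the 9 clones were positive on all 4 arrays of 30 min and negative on all 4 arrays of 6 hr, against 8.28% of all clones with centring and 9.74% without it. The 7 with negative values at 2 hr too are clones 469, 1408, 3064, 3643, 3658, 4315 and 4912. Each was positive on all 4 arrays of 30 min and negative on all 8 arrays of 2 hr and 6 hr, with and without centring. Among all 3018 clones 6.36% did so with centring and 7.19% without it. In LA2711 their condition means ran between 0.73 and 1.25 at 30 min, between -3.20 and -2.65 at 2 hr and between -5.58 and -4.42 at 6 hr. In ZS-5 they ran between 0.89 and 1.57 at 30 min, between -4.13 and -3.71 at 2 hr and between -5.36 and -4.47 at 6 hr. The ranges of the 3 times did not overlap in either genotype.

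Clone 3064 had the widest swing. Its LA2711 arrays gave 1.34 and 1.15 at 30 min, -3.34 and -3.07 at 2 hr and then -5.77 and -5.38 at 6 hr. Its ZS-5 arrays gave 1.45 and 1.39 at 30 min, -4.01 and -3.83 at 2 hr and then -5.38 and -5.34 at 6 hr. No array of 1 time reached into the range of another time. The RNAs were 47.7-fold apart in LA2711 and 41.0-fold apart in ZS-5 at 6 hr, or 93.7-fold and 74.0-fold without centring. Among 3018 clones it ranked 6th from the lowest in LA2711 and 16th in ZS-5 at that time. At 30 min it ranked 132nd and 203rd from the highest.

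**Figure D1:**
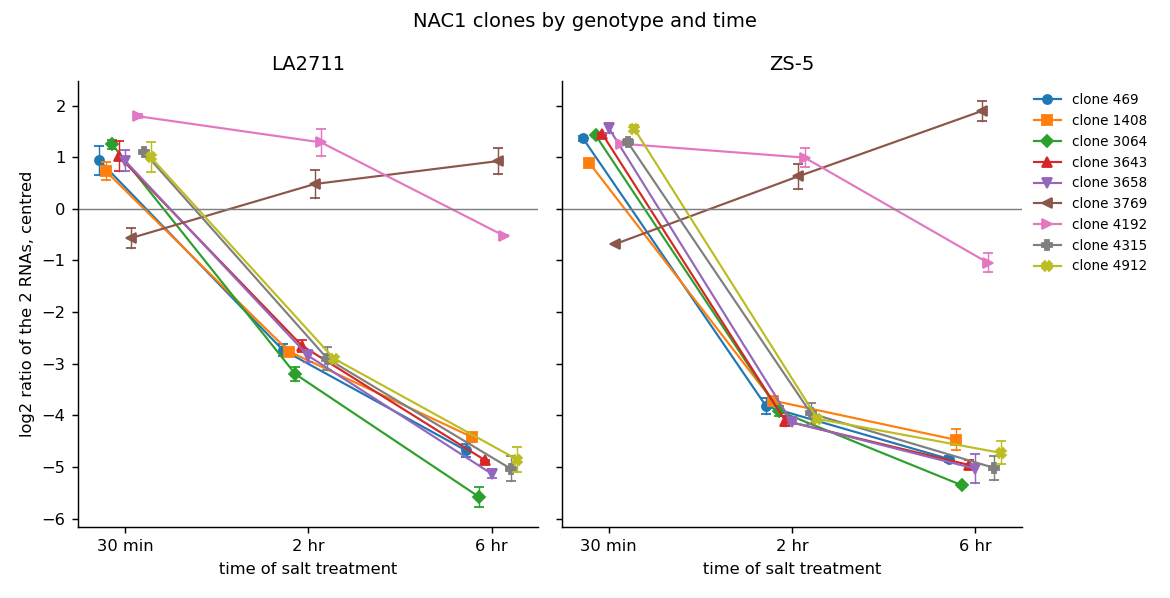
Centred log2 ratio of the 2 RNAs (y axis) against the time of salt treatment (x axis) for the 9 NAC1 clones, in LA2711 (left) and ZS-5 (right). Symbols are means of 2 arrays, short bars joined by a line are the single arrays, and clones are shifted sideways so that they can be told apart. The 7 bundled clones lie above 0 at 30 min and below -4 at 6 hr, while clone 4192 crosses 0 only between 2 hr and 6 hr and clone 3769 runs the other way.

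Clone 1408 had the smallest swing of these 7. Its LA2711 arrays gave 0.91 and 0.55 at 30 min, -2.84 and -2.69 at 2 hr and then -4.33 and -4.51 at 6 hr. Its ZS-5 arrays gave 0.97 and 0.81 at 30 min, -3.67 and -3.75 at 2 hr and then -4.68 and -4.27 at 6 hr. Its times did not overlap either, and its 30 min values were closer to 0 than those of clone 3064 in each genotype.

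Clone 4192 stayed positive at 2 hr. Its LA2711 arrays gave 1.84 and 1.75 at 30 min, 1.02 and 1.55 at 2 hr and then -0.52 and -0.54 at 6 hr. Its ZS-5 arrays gave 1.29 and 1.24 at 30 min, 0.81 and 1.17 at 2 hr and then -0.86 and -1.23 at 6 hr. It shares the early positive and late negative sides with the 7 clones, but its 6 hr mean was -0.53 ± 0.01 in LA2711 and -1.05 ± 0.26 in ZS-5 (SD, n = 2 arrays each). Without centring these means were -1.50 and -1.90.

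Clone 3769 ran opposite to the others. Its LA2711 arrays gave -0.38 and -0.75 at 30 min, 0.74 and 0.22 at 2 hr and then 1.18 and 0.66 at 6 hr. Its ZS-5 arrays gave -0.69 and -0.68 at 30 min, 0.87 and 0.38 at 2 hr and then 2.08 and 1.70 at 6 hr. The side it took in LA2711 depended on centring: at each of the 3 times 1 uncentred LA2711 array was positive and the other negative, at 6 hr with 0.50 and -0.60. Both uncentred ZS-5 arrays of 6 hr were positive, at 1.50 and 0.57.

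The clones of the gene therefore fell into a tight bundle and 2 outlying profiles. Over the 6 condition values, the root mean square difference between 2 clones of the bundle was 0.15 to 0.69, and the lowest Pearson's r was 0.9947. Clone 4192 differed from them by 3.33 to 3.84, with r of 0.75 to 0.79. Clone 3769 differed by 4.14 to 4.77, with r of -0.94 to -0.92. Clones 3769 and 4192 differed from each other by 1.86, with r = -0.87. These correlations describe 6 values per clone that share the same arrays.

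Other genes with at least 3 measured clones were also not uniform. At 6 hr the SD between clones of a gene was 2.39 for NAC1, 3.16 for AOS (7 clones; allene oxide synthase of jasmonate synthesis), 2.61 for MT2 (3 clones; a metallothionein) and 2.20 for PSBR (3 clones; a photosystem II protein). It was 1.78 for LOC543878 (3 clones), 1.21 for SAM3 (5 clones; an S-adenosylmethionine synthetase), 0.95 for LOC778326 (12 clones) and 0.05 for LOC544267 (3 clones). NAC1 had 8 pairs with a negative r out of 36, all of them pairs with clone 3769, and AOS had 11 out of 21.

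The first question the design asks is whether the ratio differed from 0 at each time, over both genotypes. At 30 min 7 NAC1 clones were called by limma on the positive side and 0 on the negative side, against 9.48% of all clones called positive and 8.75% called negative (18.2% together). The called clones were 469, 3064, 3643, 3658, 4192, 4315 and 4912. The highest was clone 4192 at 1.53 ± 0.23 (SE from the spread between genotypes within times, limma adjusted p = 0.0018), a 2.88-fold difference between the RNAs. Clone 1408 lay at 0.81 ± 0.25 and missed the threshold (limma adjusted p = 0.0543; 0.0271 without centring), as did clone 3769 at -0.62 ± 0.25 (limma adjusted p = 0.124). Scaling changed the values of this time. Clone 3769 was called negative at -2.16 after quantile normalization (limma adjusted p = 0.000399) and at -1.50 with all arrays scaled to the same spread (limma adjusted p = 0.00423). The 7 bundled clones were all called under both, at 1.29 to 1.99 and at 1.96 to 3.24, against 0.81 to 1.33 with centring. Of all 3018 clones 568 were called positive and 1134 negative after quantile normalization. With arrays of the same spread 707 were called positive and 677 negative. The median over the NAC1 clones was 1.24, where that of all clones was close to 0. With 1 genotype alone at this time, the bundled clones lay at 0.73 to 1.25 in LA2711 and at 0.89 to 1.57 in ZS-5. Fewer NAC1 clones were called in either case. A lone value is there assumed to vary like those of the other times, so no count is given.

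At 2 hr the 7 bundled clones were called negative and clone 4192 positive, against 36.6% and 32.2% of all clones (68.9% together). The lowest was clone 3064 at -3.56 ± 0.23 (limma adjusted p = 2.04e-06), which is 11.8-fold between the RNAs, and the other 6 ran up to -3.24. They ranked 118th to 176th from the lowest of 3018. Clone 4192 lay at 1.14 ± 0.23 (limma adjusted p = 0.00226), a call that was lost with arrays of the same spread (1.16, limma adjusted p = 0.196). Clone 3769, at 0.55 ± 0.25, did not pass (limma adjusted p = 0.0766).

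At 6 hr all 9 clones were called, 8 negative and 1 positive, against 42.4% and 44.9% of all clones. With 87.3% of all clones called at that time, the number of calls says little about NAC1, and the sizes say more. The 7 bundled clones lay between -5.47 and -4.45 and ranked 9th to 106th from the lowest of 3018. Clone 3064 at -5.47 ± 0.23 was 44.2-fold between the RNAs (limma adjusted p = 2.26e-07) and clone 1408 at -4.45 ± 0.25 was 21.8-fold. Clone 4192 lay at -0.79 ± 0.23 (limma adjusted p = 0.0101) and ranked 1215th from the lowest. It was not called after quantile normalization (-0.79, limma adjusted p = 0.0711), with arrays of the same spread (-0.39, limma adjusted p = 0.63) or without the ZS-5 arrays of 6 hr (-0.53). Clone 3769 lay at 1.41 ± 0.25 (limma adjusted p = 0.000549), but at 0.49 and not called without centring (limma adjusted p = 0.164), and at 0.42 and not called after quantile normalization (limma adjusted p = 0.126). It kept its call with arrays of the same spread, at 0.70 (limma adjusted p = 0.0422). With arrays of the same spread the 7 bundled clones were called at -2.81 to -2.28, where 829 of 3018 clones were called negative and 790 positive.

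**Figure D2:**
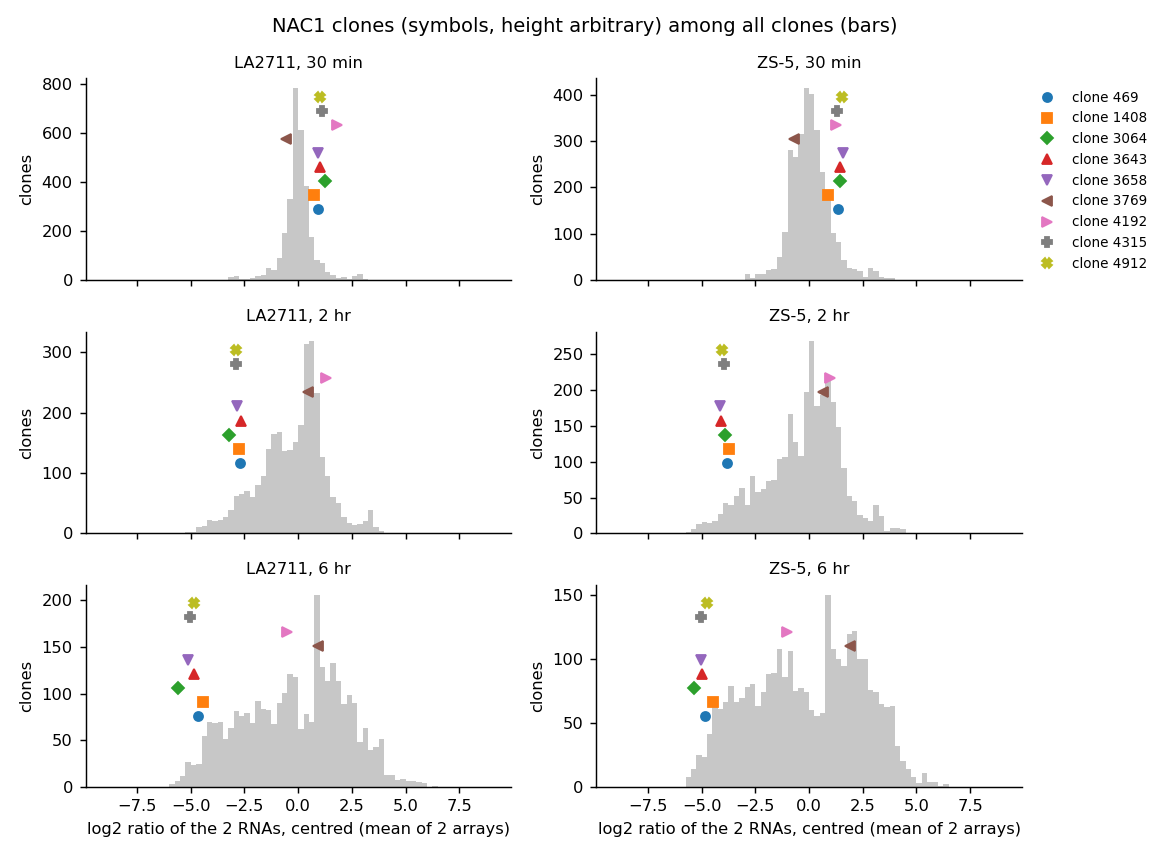
Distribution of the centred log2 ratios of all 3018 clones (grey bars, number of clones per bin on the y axis, means of 2 arrays on the x axis) in LA2711 (left) and ZS-5 (right) at 30 min, 2 hr and 6 hr (top to bottom), with the NAC1 clones as symbols whose height has no meaning. The whole distribution widens with time, and the 7 bundled clones move from its upper side at 30 min to its lower tail at 6 hr.

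The width of the distribution matters for these values. The 5th and 95th percentiles of all clones were -1.12 and 1.16 in LA2711 and -1.21 and 1.67 in ZS-5 at 30 min. At 6 hr they were -4.25 and 3.55 in LA2711 and -4.34 and 3.79 in ZS-5. The bundled clones lay inside the 95th percentile at 30 min in ZS-5 and all below the 5th percentile at 6 hr in both genotypes. In LA2711 only clone 3064 of the bundle exceeded the 95th percentile at 30 min. Clone 4192 exceeded it there too, at 1.79.

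The second question is when the ratio changed. Most of the shift of the bundle took place between 30 min and 2 hr. In a model with genotype and time, 2 hr minus 30 min gave -4.89 ± 0.34 for clone 3064 (SE, limma adjusted p = 0.000151) and -4.76 to -4.05 for the other 6 clones. These 7 were called negative, against 24.8% of all clones (36.3% in either direction), and ranked 10th to 47th from the lowest. Clone 3769 was called positive at 1.18 ± 0.34 (limma adjusted p = 0.031), against 11.5% of all clones, and missed the threshold without centring at 0.90 (limma adjusted p = 0.155). It also missed it without both LA2711 arrays of 2 hr (1.04), without both ZS-5 arrays of 30 min (0.84) or of 2 hr (1.32), and without 1 ZS-5 array of 2 hr (1.06). Clone 4192 differed by -0.39 ± 0.28 and was not called (limma adjusted p = 0.303; 95% interval -1.04 to 0.26). Its difference was -1.13 after quantile normalization (limma adjusted p = 0.0806) and -2.76 with arrays of the same spread (limma adjusted p = 0.0602). With arrays as separate samples and the dye as a block it passed narrowly at -0.39.

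Between 2 hr and 6 hr the 7 clones went on by a smaller step. The 6 hr minus 2 hr difference lay between -1.91 and -1.21 for them and at -1.92 ± 0.28 for clone 4192 (SE, limma adjusted p = 0.00246). These 8 clones were called negative, against 19.2% of all clones (24.1% positive, 43.3% together), and clone 3769 was not called at 0.85 ± 0.34 (limma adjusted p = 0.0779). With centring this was the larger of the 2 steps of clone 4192. With arrays of the same spread the order turned, at -2.76 for the first step and -1.56 for the second, and after quantile normalization the steps were -1.13 and -1.86. These 8 calls depend on how arrays are scaled. After quantile normalization, or with all arrays scaled to the same spread, 0 of the 9 clones and 0 of 3018 clones were called for this step. The values of the 7 clones stayed negative after quantile normalization and were positive with arrays of the same spread. Fewer NAC1 clones were called without both LA2711 arrays of 2 hr, or without both of 6 hr, where 1 time rests on 1 value. Over all arrays and conditions left out, the differences of the 7 clones ran from -2.42 (clone 3658) to -0.55 (clone 4912).

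From 30 min to 6 hr the 7 clones differed by -6.80 to -5.26, and all 9 NAC1 clones were called, 8 negative and 1 positive, against 35.9% and 41.6% of all clones (77.4% together). Clone 3064 had the lowest value of all 3018 clones at -6.80 ± 0.34 (SE, limma adjusted p = 2.49e-05), a change of the ratio by 111-fold, and clones 3658, 4315, 3643, 4912, 469 and 1408 ranked 5th, 6th, 8th, 10th, 13th and 29th. Clone 4192 differed by -2.31 ± 0.28 (limma adjusted p = 0.00018). Clone 3769 differed by 2.03 ± 0.34 (limma adjusted p = 0.001), and without centring by 1.02 (limma adjusted p = 0.0724). Leaving out any array or condition left the count at 9.

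**Figure D3:**
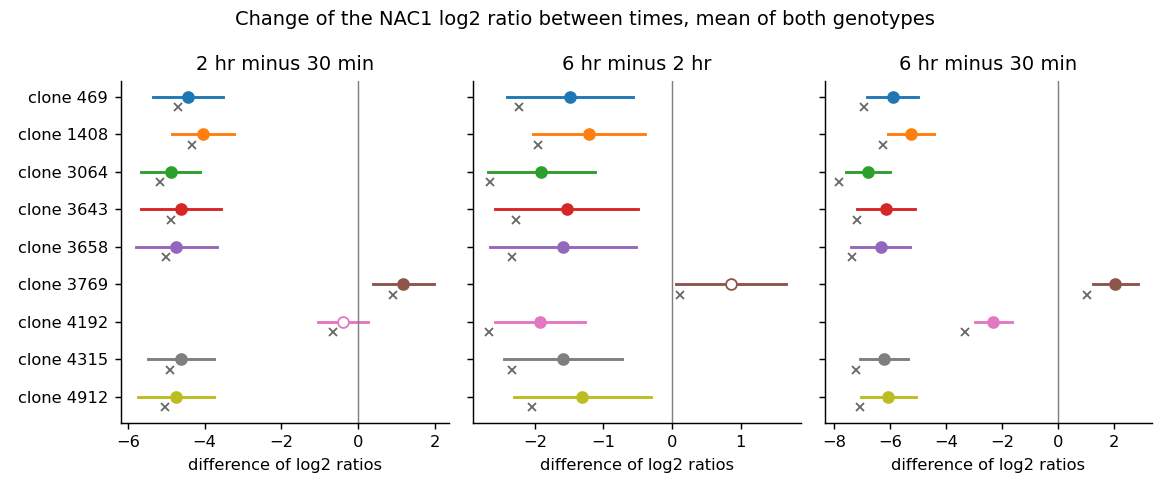
Difference of the log2 ratio between times (x axis) for each NAC1 clone (y axis), averaged over both genotypes. Circles are limma estimates on centred values with 95% intervals as lines, filled where the adjusted p is under 0.05, and crosses are the estimates without centring. The 7 bundled clones lie between -4.89 and -4.05 in the first panel and between -1.91 and -1.21 in the second, whereas clone 4192 is near 0 in the first and at -1.92 in the second.

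The third question is whether the tolerant and the sensitive genotype differed. Over the 3 times, the LA2711 minus ZS-5 difference was called for 0 of the 9 clones by limma, none of which had an unadjusted p under 0.05. Of all 3018 clones 0 were called (0%), with 196 at an unadjusted p under 0.05. The NAC1 estimates ran from -0.33 ± 0.28 for clone 3769 to 0.45 ± 0.23 for clone 4192 (SE, limma adjusted p = 0.96 and 0.895). The 95% intervals reached from -0.99 at the lowest to 1.23 at the highest, so mean differences of that size lie within the error. This test treats a genotype difference that varies with time as spread.

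At 2 hr the bundle lay closer to 0 in LA2711. The difference was largest for clone 3643, whose arrays gave -2.53 and -2.77 in LA2711 and -4.20 and -4.01 in ZS-5. Its means were -2.65 ± 0.16 in LA2711 and -4.11 ± 0.13 in ZS-5 (SD, n = 2 arrays each), apart by 1.46, or 2.75-fold. For the 7 clones the LA2711 minus ZS-5 difference at 2 hr ran from 0.71 to 1.46, or 0.35 to 1.10 without centring. In all 7 both LA2711 arrays lay above both ZS-5 arrays, with and without centring, as they did for 36.1% of all clones with centring and 9.61% without. A condition has 1 pair of arrays of the same RNAs, so this difference has no test. The low tail of all clones was also closer to 0 in LA2711 at 2 hr, with a 5th percentile of -3.07 against -3.65 in ZS-5. Clone 3769 at -0.15 and clone 4192 at 0.29 had overlapping arrays, and 0 NAC1 clones had both LA2711 arrays below, against 32.8% of all clones (44.9% without centring).

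At 30 min the same clones differed the other way, by less. The difference ran from -0.64 for clone 3658 to -0.16 for clone 1408, and 6 of the 7 had both LA2711 arrays below both ZS-5 arrays, as did 33.8% of all clones. Without centring 0 of the 9 clones did so, against 10.4% of all clones, and the differences lay between -0.40 and 0.08. Clone 4192 was higher in LA2711 at 30 min by 0.53 with centring and 0.77 without, with arrays that did not overlap, as was the case upward for 28% of all clones with centring and 36.1% without. At 6 hr the bundle differed by -0.22 to 0.17, which for 6 of its 7 clones left the arrays overlapping. The exception was clone 3064, at -5.58 ± 0.27 in LA2711 and -5.36 ± 0.03 in ZS-5 (SD, n = 2 arrays each), a gap smaller than the SD of its LA2711 arrays. Clone 3769 differed most at 6 hr, at 0.92 ± 0.37 in LA2711 and 1.89 ± 0.27 in ZS-5, with arrays apart with and without centring. Both LA2711 arrays lay below at 6 hr for 27.5% of all clones with centring. Without centring clones 3658, 3769, 4315 and 4912 did so, against 24.1% of all clones, and clone 3064 overlapped. Clone 4192 lay higher in LA2711 by 0.52 at 6 hr with arrays apart, against 22.5% of all clones, and overlapped without centring, where 12.3% of all clones lay apart upward.

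**Figure D4:**
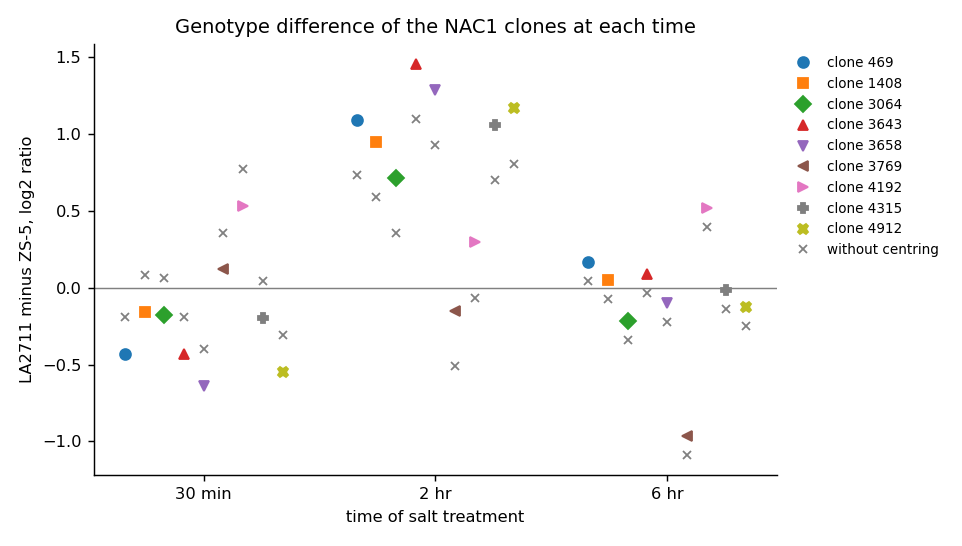
LA2711 minus ZS-5 difference of the log2 ratio (y axis) for each NAC1 clone at 30 min, 2 hr and 6 hr (x axis). Coloured symbols are differences of centred condition means, grey crosses the same without centring, and no error is drawn because a condition is 1 pair of arrays. The 7 bundled clones lie between 0.71 and 1.46 at 2 hr and within 0.22 of 0 at 6 hr.

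The step from 30 min to 2 hr was therefore shorter in LA2711 than in ZS-5 for the bundle, and the step from 2 hr to 6 hr longer. Over all clones, LA2711 arrays spread less than ZS-5 arrays. Their median absolute deviations were 0.48 and 0.49 against 0.74 and 0.85 at 30 min. They were 1.4 and 1.4 against 1.6 and 1.6 at 2 hr, and 2.7 and 2.7 against 3.2 and 3.1 at 6 hr. Whether the steps of the bundle differed beyond that spread was not tested. Clone 3643 had means of 1.03, -2.65 and -4.87 in LA2711 at 30 min, 2 hr and 6 hr, and of 1.45, -4.11 and -4.96 in ZS-5. With 1 value per condition, a different course in the genotypes could not be tested. In the order of its 6 conditions, the 2 values of 6 hr were neighbours that overlapped between genotypes, as for 6 of the 7 clones, and those of 2 hr were neighbours that did not.

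The 3 spots of a NAC1 clone on 1 array had a median SD of 0.14 and a highest SD of 0.87, in clone 4912 on a ZS-5 array of 30 min. The 2 dye-swap arrays of a condition had a median SD of 0.16 and a highest of 0.42, in clone 4912 in LA2711 at 30 min. Before centring, arrays with treated RNA in Cy5 lay above their dye-swap partners by 0.21 to 0.53 in the median over all clones, and by 0.21 to 0.91 in the median over the NAC1 clones. After centring the NAC1 medians of this difference ran from -0.18 to 0.37, the highest in LA2711 at 30 min. The underlying ratios were stored with 3 decimals, which at 6 hr makes 1 step of a low NAC1 ratio as large as 0.14 on the log2 scale on arrays with treated RNA in Cy3.

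Likeness to other clones was measured by the root mean square difference over the 6 condition values. Only 79 of 3456 clones carry a gene name, 77 of them measured on all arrays, so named neighbours come from a small part of the array. The named clones of other genes nearest to clone 3064 were AOS 1120 (0.64), AOS 781 (0.67), AOS 1384 (0.73), AOS 3373 (1.13) and PSBR 1453 (1.37), with Pearson's r of 0.976 to 0.997. Among all clones, named or not, they ranked only 11th, 12th, 15th, 72nd and 165th in nearness. These 4 AOS clones were positive at 30 min and negative later in both genotypes. They do not stand for all 7 AOS clones, whose means ran from -1.75 to 2.79 at 30 min. At 2 hr the 7 ran from -4.74 to 3.17 and at 6 hr from -5.24 to 3.49. PSBR 1453 was negative throughout, at -0.95 in LA2711 and -0.85 in ZS-5 at 30 min. It does not stand for the 3 PSBR clones either, whose 6 hr means ran from -5.17 to -1.27 with a median of -1.45. Of the named clones, the nearest to the median of the NAC1 clones were AOS 781 (0.59), AOS 1120 (0.72), AOS 3373 (0.83), AOS 1384 (0.91) and ribA 9808 (1.27), a gene of riboflavin synthesis. Among all clones they ranked 27th, 47th, 64th, 79th and 215th. The ribA clone was negative throughout too, at -0.90 in LA2711 and -0.88 in ZS-5 at 30 min.

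**Figure D5:**
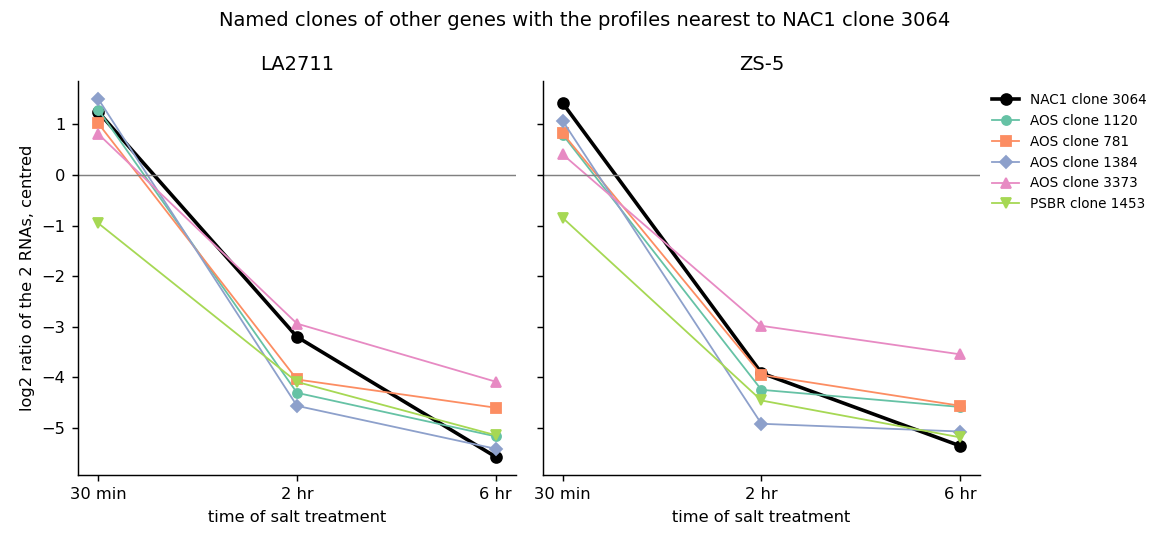
Centred log2 ratio (y axis, means of 2 arrays) against the time of salt treatment (x axis) for NAC1 clone 3064 (black) and the 5 named clones of other genes nearest to it, in LA2711 (left) and ZS-5 (right). The 4 AOS clones shown, of 7 measured, start above 0 and end between -5.42 and -3.55, while the PSBR clone is below 0 at every time.

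Unnamed clones, which are 3377 of the 3456 clones, lay nearer than any of these. For clones 3643, 3658, 4315 and 4912 the nearest clone outside NAC1 was the unnamed clone 1693, at 0.22, 0.17, 0.14 and 0.26. Within 0.5 of clone 3064 lay 5 NAC1 clones and 2 other clones, and within 0.5 of clone 4315 lay 6 NAC1 clones and 6 others, none of them named. Clone 1408 had 40 clones outside NAC1 within that distance. Clone 4192 had 0, its nearest neighbour being the unnamed clone 7366 at 0.64, the fewest of the 9. Clone 3769 had 132, and its nearest NAC1 clone ranked only 1844th among 3017.

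A search of the annotation by the symbol prefixes of several transcription factor families found ERF3 and JERF1, of the ethylene response factor family, and WRKYIId-1, of the WRKY family. It does not cover every such gene, and the homeobox gene VAHOX1 was not looked at. Of their 3 clones measured on all arrays, 2 were called positive and 1 negative at each of the 3 times, where 18.2%, 68.9% and 87.3% of all clones were called at 30 min, 2 hr and 6 hr. ERF3 was negative from the start, at -1.14, -1.93 and -2.69 at 30 min, 2 hr and 6 hr (limma adjusted p = 0.00614, 6.05e-05 and 2.76e-06). Clone 5092 of JERF1 had 1.39 after 30 min, 1.23 after 2 hr and 0.85 after 6 hr, and clone 6988 had 1.17, 1.21 and 0.83. Without centring their 6 hr values were -0.06 and -0.09 and were not called. WRKYIId-1 lacked a value on 1 LA2711 array of 2 hr and was fitted only with clones measured on at least 1 array of each condition. There it lay at -1.39, 1.16 and -0.51 at 30 min, 2 hr and 6 hr, the last of which did not pass (limma adjusted p = 0.00679, 0.00406 and 0.0699). Of the 3 clones measured throughout, ERF3 was called for 6 hr minus 30 min, at -1.56, and the JERF1 clones were not, at -0.53 and -0.34. For this difference 35.9% of all clones were called negative and 77.4% in either direction. Without centring the 2 JERF1 clones were also called, at -1.55 and -1.35.

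In tomato fruit NAC1 has been linked to ethylene and carotenoid synthesis, and ACS7, an aminocyclopropane carboxylate synthase, and PSY2, a phytoene synthase, are on the array. Neither was called at 30 min, at -0.11 for ACS7 and -0.99 for PSY2, when 18.2% of all clones were called. Both were called negative at 2 hr, at -0.56 and -1.79, and at 6 hr, at -2.17 and -2.93, times at which 36.6% and 42.4% of all clones were called negative. Their 6 hr minus 30 min differences were -2.06 and -1.94 (limma adjusted p = 0.000423 and 0.000677), where 35.9% of all clones were called negative.

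Of 5 genes of water, ion and peroxide handling, 4 were called positive and 1 negative at 6 hr. At that time 87.3% of all clones were called, 44.9% positive and 42.4% negative, so that 5 calls in 5 genes say little. Whether the split between the sides departs from that of all clones was not tested. LKT1, a potassium channel, lay at 2.60, the aquaporin TIP at 2.59, the peroxidase TPX2 at 2.21 and the catalase cat1 at 1.47, while the osmotin-like NP24-I had -2.09. Without centring cat1 lay at 0.55 and was not called (limma adjusted p = 0.169). At 30 min 1 of the 5 was called positive, LKT1 at 1.02, and 1 negative, cat1 at -1.43, against 9.48% and 8.75% of all clones. For 6 hr minus 30 min 3 of the 5 were called positive and 1 negative, against 41.6% and 35.9% of all clones. The difference was 3.01 for TIP, 2.90 for cat1 and 1.57 for LKT1 (limma adjusted p = 0.0003, 0.000268 and 0.00157). NP24-I differed by -1.69 (limma adjusted p = 0.00143), and TPX2 was not called at 1.21 (limma adjusted p = 0.0651). Without centring LKT1 differed by 0.56 and was not called (limma adjusted p = 0.202). TIP was not called at 30 min, at -0.42.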

How the data were processed

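The deposited values are 1 log2 ratio of the 2 channels per spot and array; neither scanner, background correction nor normalization is given in the sources used here. On each array the ratio or its inverse is a number of 3 decimals, and the dye orientation decides which, from which all arrays run the same way. The numerator and any centring by the submitters stay unknown.

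The 10368 spots form adjacent sets of 3 with close values, and the measured spots of a set were averaged to 1 clone value. The 366 spot values at the ratio limits of 0.001 and 100000 were left out; 0 of them are NAC1 spots. From each array the median of the 3018 clones measured on all 12 arrays was subtracted, and both dye-swap arrays of a condition were averaged, since they hold the same 2 RNAs. Tests used limma 3.58.1 in R 4.3.3 (lmFit and eBayes, 2-sided) on 6 condition values, with Benjamini-Hochberg adjustment over the 3018 clones; called means an adjusted p under 0.05. Models had 1 mean per time, or genotype plus time. The script was tested on simulated data. Genes are named from the platform annotation, which is old; NAC1 was found by gene ID in the RefSeq table of assembly SLM_r2.1 under the same symbol. The files name no genome build, so coordinates are left out.

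Every NAC1 clone is described. The other genes named are those of 3 lists (other transcription factors by symbol prefix, ethylene and carotenoid synthesis, and water, ion and peroxide handling), the 5 named clones of other genes nearest to a NAC1 profile, and genes with at least 3 measured clones. Members, lists and tests were chosen with earlier results of these data known. The alternatives tried were no centring, quantile normalization, a common array scale, other spot and clone filters, arrays as separate samples with and without a block, and leaving out arrays or conditions.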

Additional observations from a re-analysis of the deposited data

How the results depend on the processing

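Of the 7 comparisons, the counts of NAC1 clones called at 2 hr, at 6 hr, for 2 hr minus 30 min, for 6 hr minus 30 min and for LA2711 minus ZS-5 stayed within 1.5 times their values under every alternative run. The count at 30 min ran from 5 to 8 and that for 6 hr minus 2 hr from 6 to 9 when 1 array was left out. Those of all 3018 clones then ran from 486 to 668 and from 1155 to 1381. Leaving out both arrays of a condition, so that 1 time rests on 1 value, took these counts lower still. That held for NAC1 and for all clones. The 6 hr minus 2 hr count was 0 after quantile normalization and 0 with all arrays scaled to the same median absolute deviation, a scaling that forces all arrays to 1 spread. Under that scaling the differences of clones 469, 1408, 3064, 3643, 3658, 4315 and 4912 were 0.83, 0.95, 0.76, 0.84, 0.87, 0.85 and 1.02, none called. The LA2711 minus ZS-5 values of 7 clones changed sign without both arrays of 2 hr of either genotype; over all arrays and conditions left out they ran from -0.13 to 0.63 (469), -0.054 to 0.50 (1408), -0.20 to 0.27 (3064), -0.17 to 0.77 (3643), -0.37 to 0.59 (3658), -0.11 to 0.52 (4315) and -0.34 to 0.52 (4912). Taking the median of the spots changed 0 of 63 NAC1 calls. Keeping spots at the ratio limits changed 0 of 63 too, but 0 NAC1 spots lie at the limits. That setting could reach the NAC1 calls only through other clones, so it says little about them.

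With the 12 arrays as separate samples and the repeat number as a replicate block, 9 NAC1 clones were called at each time, 8 for 2 hr minus 30 min, 9 for each of the other time differences and 0 for LA2711 minus ZS-5. Of all 3018 clones this fit called 1350 at 30 min, 1994 for 2 hr minus 30 min and 2188 for 6 hr minus 2 hr. The main fit already called 68.9% of all clones at 2 hr, 87.3% at 6 hr and 77.4% for 6 hr minus 30 min. The NAC1 counts of those 3 comparisons therefore say little. The repeat numbers do not pair arrays across conditions, since r between the within-pair differences ran from -0.56 to 0.86, against 0.45 to 0.86 when arrays were matched by dye. Counting dye-swap arrays separately understates the error between plants. For all clones, the 30 min count of 550 became 1702 after quantile normalization, 1384 with a common spread and 1280 to 1368 with separate arrays. Separate arrays gave 1889 to 2007 in place of 1096 for 2 hr minus 30 min, 2119 to 2203 in place of 1308 for 6 hr minus 2 hr, and 219 to 270 in place of 0 for LA2711 minus ZS-5. A common spread gave 1619 in place of 2635 at 6 hr, 688 for 2 hr minus 30 min and 808 in place of 2337 for 6 hr minus 30 min, where quantile normalization gave 1114. Intensities were not used here, so signal over background is unknown.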
